A study of Drosophila melanogaster with 76 samples.

Results

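The cell-death genes hid, grim, rpr and skl lie in this order along chromosome 3L of Drosophila melanogaster, and binding around them of 3 transcription factors, Zld (Zelda), Grh (Grainy head) and Twi (Twist), was described from ChIP-seq peak lists. They were taken as a named gene family, 4 of 13922 protein-coding genes in the annotation table. No rule on measured values picked them, but earlier results of these data were known when they were chosen. For each gene, the summits of every list within the gene span plus 10 kb on both sides, called its window here, were collected. A summit is the position of highest enrichment in a called region.

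The cells were Drosophila S2 cells, a cultured line of embryonic origin with properties of blood cells. Wild-type cells (S2-WT) and lines named S2-Zld, S2-Grh, S2-Twi and S2-HA-Twi were used, together with S2-Zld-DBD and S2-Grh-DBD, whose names are read here as the DNA-binding domains alone. Each factor was expressed by adding CuSO4, and cells were harvested 48 h later. Zld was precipitated with anti-Zld after 0, 500, 1000 or 1500 µM CuSO4, Grh with anti-Grh after 0, 25, 100 or 400 µM, and HA-Twi with anti-HA after 0, 10, 40 or 160 µM. Further single-dose lists covered Zld at 1000 µM, Grh at 100 µM and untagged Twi with anti-Twi at 40 µM. The Zld-DBD lists were made at 100 µM (2 lists) and 400 µM, and the Grh-DBD lists at 20 µM (2 lists) and 80 µM. One more set carried DMSO or an agent written "taz" in the titles, which the labels do not explain, at 1000 µM for Zld, 100 µM for Grh and 40 µM for HA-Twi. Wild-type cells received CuSO4 too: 1000 µM for anti-Zld, 100 µM for anti-Grh and 40 µM for both anti-Twi and anti-HA. The promoter that drives the constructs, and whether a line is a single clone, are not given in the sources used here.

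The proteins of hid, rpr, grim and skl share a short amino-terminal motif with which they bind inhibitors of apoptosis, chiefly Diap1, and so release the caspases that Diap1 holds in check. In flies their transcription is the main switch of developmental and damage-induced cell death, and the deletion that removes hid, grim and rpr blocks nearly all embryonic apoptosis. Zld is a zinc-finger activator of the first zygotic genes, Grh a regulator of epithelial genes that also acts with Hox proteins in the programmed death of larval neuroblasts, and Twi the basic helix-loop-helix protein that directs mesoderm formation.

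There were 31 peak lists, made from 62 of the 76 libraries, and the other 14 libraries were not analysed here. Each list pools 2 libraries, so no spread between libraries exists and no difference between groups could be tested. Lists that share construct, dose and antibody but stand under other titles, called repeat lists, give the only spread. The lists held 88 (HA-Twi at 0 µM) to 20194 summits (Grh at 400 µM), 258174 in all, and the read depth behind them is unknown. The wild-type anti-Grh list stood apart: its highest fold was 386 against a median of 2.96. Its share of peak numbers kept, 19.8%, was low but within the range of the other lists. Whether its label is right is not known. Without it and the short HA-Twi list at 0 µM, hid had a summit in 29 lists and rpr in 28. The fold is the authors' enrichment value and is used only to rank summits within a list. Folds of different lists standing side by side do not measure relative strength.

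Of the 4 gene windows, those of hid and rpr held nearly all the summits, and those of grim and skl were fully or nearly empty. hid (gene ID 40009, 3L:18167745-18185641 of dm6) had a summit in 29 of 31 lists and rpr (gene ID 40015, 3L:18397535-18398435) also in 29. As many lists or more were reached by 4.67% of all protein-coding genes. skl (gene ID 40016, 3L:18438561-18439942) had a summit in 1 list, where 9.49% of genes had at most 1, and grim (gene ID 40014, 3L:18302719-18304417) in none, where 7.09% of genes had none. The median gene had a summit in 21 lists.

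Long genes have long windows, so the number of summits was also set per 10 kb. The hid window of 37897 bp held 242 summits over all lists, or 63.9 per 10 kb, and 7.93% of all genes were as dense or denser. The rpr window of 20901 bp held 124 summits, or 59.3 per 10 kb, a density reached by 10.4% of genes. The median over all genes was 25.1 per 10 kb. By this measure hid and rpr were similar to each other and well above the median gene, though 1104 genes were at least as dense as hid and 1454 as rpr.

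**Figure D1:**
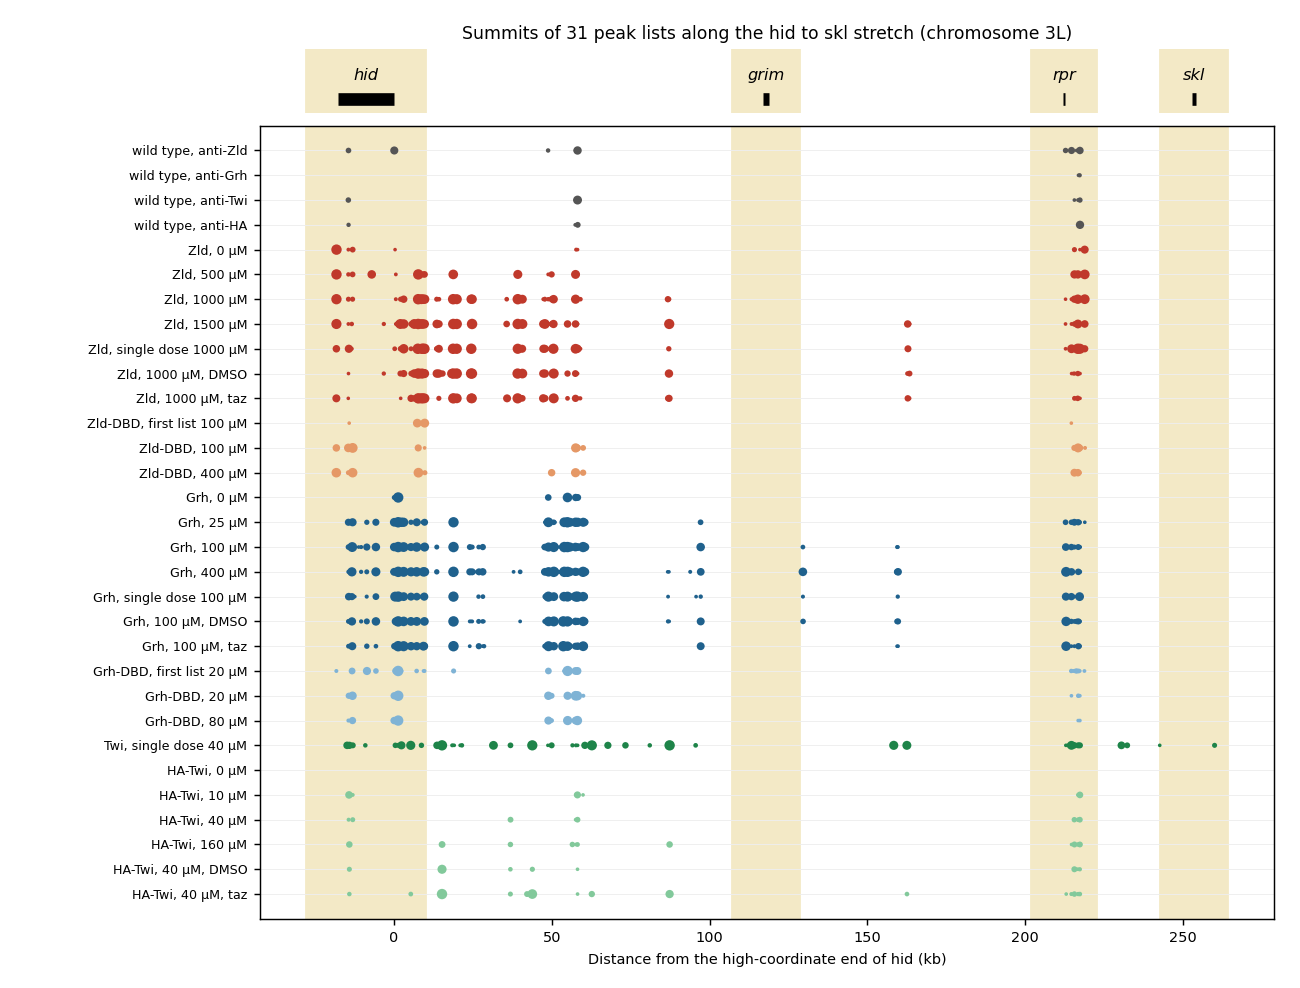
Position of binding along the stretch from hid to skl, as distance in kb from the high-coordinate end of hid (horizontal axis), for the 31 lists (rows). Each point is a site with a summit in that list, larger where the summit stood nearer the top of its list, coloured by construct, with the 4 gene windows shaded; the grim window holds no point and the skl window 1.

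The map of summits along the stretch shows where these counts came from. Summits of all lists within 200 bp of the next were joined to 1 site, which gave 105 sites between the low edge of the hid window and the high edge of the skl window. The hid window held 25 of them and the rpr window 10, the skl window 1 and the grim window 0. A further 60 sites lay between the windows of hid and grim, 6 between grim and rpr and 3 between rpr and skl. Per 10 kb this was 6.60 sites in the hid window, 6.18 between hid and grim, 4.78 in the rpr window and 0.821 between grim and rpr. The dense part of the stretch thus ran from hid well past its window towards grim and stopped before grim.

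grim, whose protein also carries a motif that acts at mitochondria, was the member without a summit in its window. The nearest summit on the low side was 19876 bp away (fold 6.43) and on the high side 10800 bp away (fold 7.35), both in the Grh list at 400 µM. The stretch of 32373 bp around grim held no summit of any list; of the 241688 gaps between neighbouring summits in the genome, 518 were as long or longer. A longer empty stretch of 48923 bp lay between grim and rpr, and 281 gaps were as long as that one. The second stretch ends inside rpr, so none of the lists placed a summit on the low side of rpr within its window. Each gap counted equally whatever its length, so these counts do not give the share of genes or sequence inside such gaps. A window without a summit of any list was found for 7.09% of genes.

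skl (sickle), a relative of rpr and grim that damage induces in fly embryos, had 1 summit, in the Twi list. It stood 5775 bp above the gene at position 18445717, with a fold of 2.94 and rank 9009 of 18288 summits. The 5 induced HA-Twi lists, made with another antibody on a tagged protein, did not hold it. Above and below mean higher and lower coordinates here, since the table gives no strand. The 3 sites between the rpr and skl windows were also Twi summits alone, with folds of 4.10, 3.24 and 2.04.

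**Figure D2:**
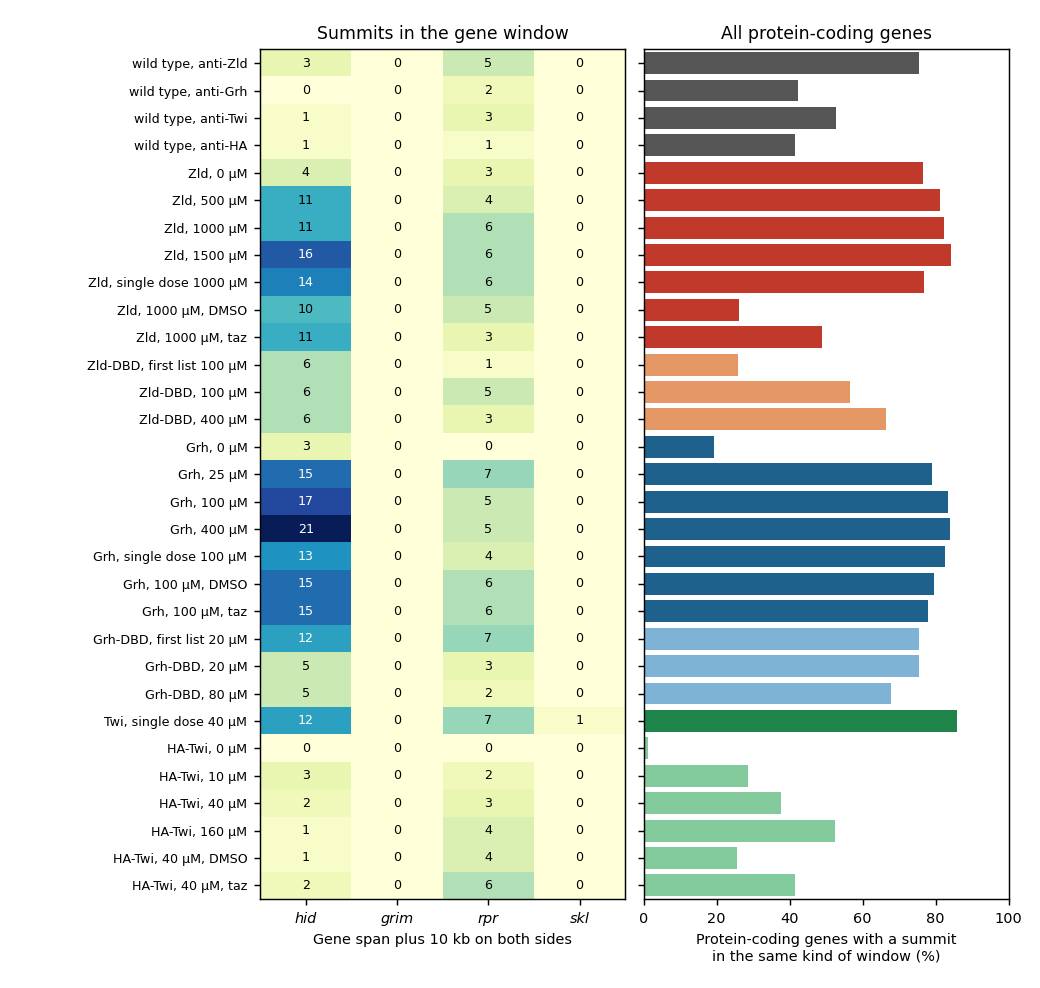
Left, number of summits in the window of each gene (columns) in each of the 31 lists (rows), with darker cells for more summits; hid ranges from 0 to 21 and grim is 0 throughout. Right, percent of the 13922 protein-coding genes with a summit in the same kind of window, from 1.13% to 85.7%.

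The counts per list are read against the share of all genes that a list reached. In each of the 6 induced Zld lists 2 of the 4 genes, hid and rpr, had a summit. That share of all genes was 81.3% at 500 µM, 82.3% at 1000 µM, 84.1% at 1500 µM and 76.7% in the single-dose list, but 26% in the list with DMSO and 48.8% with taz. Uninduced Zld cells (0 µM) also had both genes, with 76.6% of all genes. hid and rpr were thus still present in the sparse list with DMSO.

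The induced Grh lists likewise held hid and rpr, where 79% of genes had a summit at 25 µM, 83.3% at 100 µM, 83.8% at 400 µM, 82.6% in the single-dose list, 79.6% with DMSO and 77.9% with taz. Uninduced Grh cells had hid only, in a list that reached 19.4% of genes. The Twi list held hid, rpr and skl among 85.7% of genes. Of the HA-Twi lists, that at 0 µM held no member, among 1.13% of genes. Those at 10, 40 and 160 µM held hid and rpr among 28.5%, 37.7% and 52.5% of genes, and those with DMSO and taz held them among 25.7% and 41.5%.

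In the Zld-DBD lists hid and rpr were both present among 25.8% (first list, 100 µM), 56.4% (100 µM) and 66.4% (400 µM) of genes. In the Grh-DBD lists they were present among 75.3% (first list, 20 µM), 75.5% (20 µM) and 67.7% (80 µM). In wild-type cells hid and rpr had a summit with anti-Zld (75.5% of genes), anti-Twi (52.8%) and anti-HA (41.5%), and rpr alone with anti-Grh (42.3%). hid was thus missing from the wild-type anti-Grh and the HA-Twi 0 µM lists, and rpr from the Grh and HA-Twi 0 µM lists. Presence alone separated hid and rpr little from other genes in the lists that reach most of the genome.

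hid (head involution defective), the member that Ras and MAPK survival signals restrain in the fly, had the highest-ranked Zld summits of the 4 genes. In the single-dose Zld list its top summit had a fold of 22.6, rank 4 of 9213, where the list's median was 2.71 and its maximum 25.8. This summit lay 7524 bp above hid at position 18193165, in a region at 3L:18191933-18195690 of 3758 bp with 6 summits. The same site, with its median position at 18193076, was the top hid summit in all 6 induced Zld lists. It ranked 80 of 11980 at 500 µM (fold 5.27), 31 of 12423 at 1000 µM (8.26) and 12 of 12919 at 1500 µM (8.55). With DMSO it ranked 3 of 3116 (fold 9.88) and with taz 14 of 3730 (8.19). In each of these lists it was within the top 0.668% of summits. The site was already known from an earlier report on these data.

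This leading site was absent from the list at 0 µM and from wild-type cells with each of the 4 antibodies. It had a summit in 16 lists in all: the 6 induced Zld lists, the 3 Zld-DBD lists, the 6 induced Grh lists and 1 Grh-DBD list. The Twi and HA-Twi lists did not hold it. Within the site, the summits of the induced Zld lists lay at 18193165 to 18193308 and those of the induced Grh lists at 18192789 to 18192826, joined through a Zld-DBD summit at 18192988. Whether both belong to a single binding place was not tested. In the Grh lists the summit stood lower, at rank 1389 of 18089 at 100 µM (fold 7.15) and 3027 of 13859 in the single-dose list (8.39). In the Zld-DBD lists it ranked 228 of 1689 (fold 3.00), 1438 of 5360 (2.89) and 363 of 6384 (3.26). As a share of the list, it stood at 7.07% to 21.8% from the top in the induced Grh lists, at 5.69% to 26.8% in the Zld-DBD lists and at 56.6% in the Grh-DBD list. In the Zld-DBD list at 400 µM it was the top summit of the hid window.

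The called region around the leading site differed in extent between Zld lists. At 500 µM it was split into pieces of 980, 973 and 415 bp, and at 1000 µM into 1100 and 1668 bp. At 1500 µM, with DMSO and with taz it was a single region of 4051, 4175 and 3911 bp. In each Zld-DBD list 2 separate regions stood within its extent, of 836 and 1463 bp in the first list, 367 and 414 bp in the other list at 100 µM, and 830 and 343 bp at 400 µM. Neighbouring sites in this region, at 18194285, 18194796 and 18195295, also had a summit in all 6 induced Zld lists, and CG7320 is the coding gene nearest to them. The last of these ranked 41 of 9213 in the single-dose Zld list (fold 11.8) and led the hid window in the first Zld-DBD list (rank 196 of 1689, fold 3.12).

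A different site led in cells without added copper. At 0 µM the top Zld summit of the hid window lay 362 bp below the gene at 18167383, with a fold of 4.80 and rank 69 of 8290. This site had a summit in 5 of the 6 induced Zld lists, 2 Zld-DBD lists and 1 Grh-DBD list, and in no wild-type, full-length Grh, Twi or HA-Twi list. It ranked 109 of 11980 at 500 µM, 175 of 12423 at 1000 µM and 334 of 12919 at 1500 µM, and 2160 of 9213 in the single-dose list. At 0 µM the Zld line thus already held a site next to hid that wild-type cells with anti-Zld did not.

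**Figure D3:**
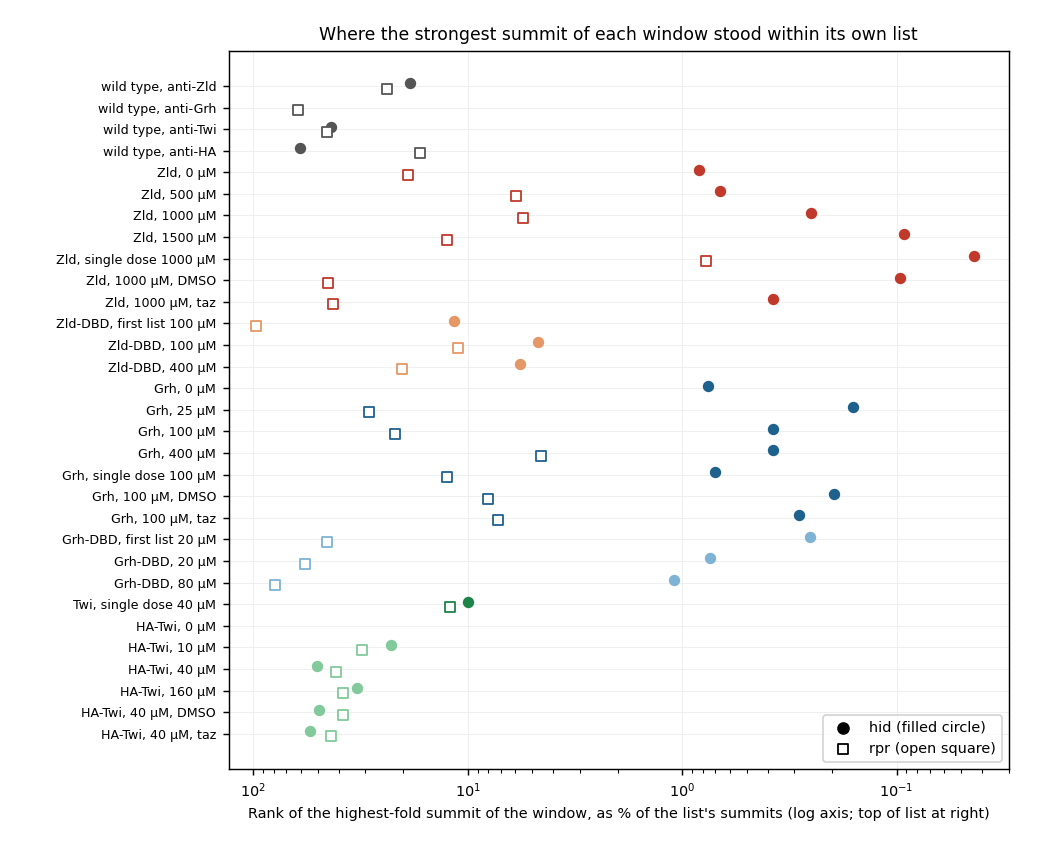
Rank of the highest-fold summit in the hid window (filled circles) and in the rpr window (open squares) as percent of the summits of its list, on a log axis with the top of the list at the right; one row per list, no point where the window held none. The hid circles of the induced Zld and Grh lists lie between 0.0434% and 0.700%, and the rpr squares of the same lists between 0.771% and 44.7%.

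Grh had its own leading site at hid. In every Grh and Grh-DBD list the top summit of the hid window lay at a site at 18186938, 1297 bp above the gene. It ranked 14 of 1853 at 0 µM (fold 6.82), 22 of 13787 at 25 µM (11.4), 68 of 18089 at 100 µM (9.76) and 76 of 20194 at 400 µM (11.9). In the single-dose list it ranked 97 of 13859 (fold 41.3, with a list median of 4.77), with DMSO 27 of 13714 (9.83) and with taz 35 of 12325 (8.23). In the Grh-DBD lists it ranked 25 of 9862 (fold 7.18), 74 of 9978 (6.48) and 80 of 7350 (5.61). Beyond these 10 lists it had a summit in the Twi list (rank 9193 of 18288) and the Zld list at 1500 µM (3637 of 12919), and in no wild-type list.

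The plot of ranks shows the difference between the members in the same lists. The top hid summit stood within the first 1.09% of summits in each of the 10 Grh and Grh-DBD lists, and the top rpr summit, where there was one, between 4.56% and 79.4%. Zld lists with copper gave 0.0434% to 0.668% for hid and 0.771% to 44.7% for rpr. These hid values all come from the leading site, 7435 bp above the gene, and so depend on the window of 10 kb. Within 5 kb of hid the highest summit of the single-dose Zld list ranked 709 of 9213, below the rpr summit at rank 71. In the other induced Zld lists the highest hid summit within 5 kb still ranked above that of rpr. In wild type hid stood at 18.5% and rpr at 23.8% with anti-Zld, at 43.5% and 45.2% with anti-Twi, and at 60.3% and 16.7% with anti-HA, while with anti-Grh rpr stood at 62.1% and hid had no summit. A window with more summits also has more chances of a high rank, and the hid window is the longer one.

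**Figure D4:**
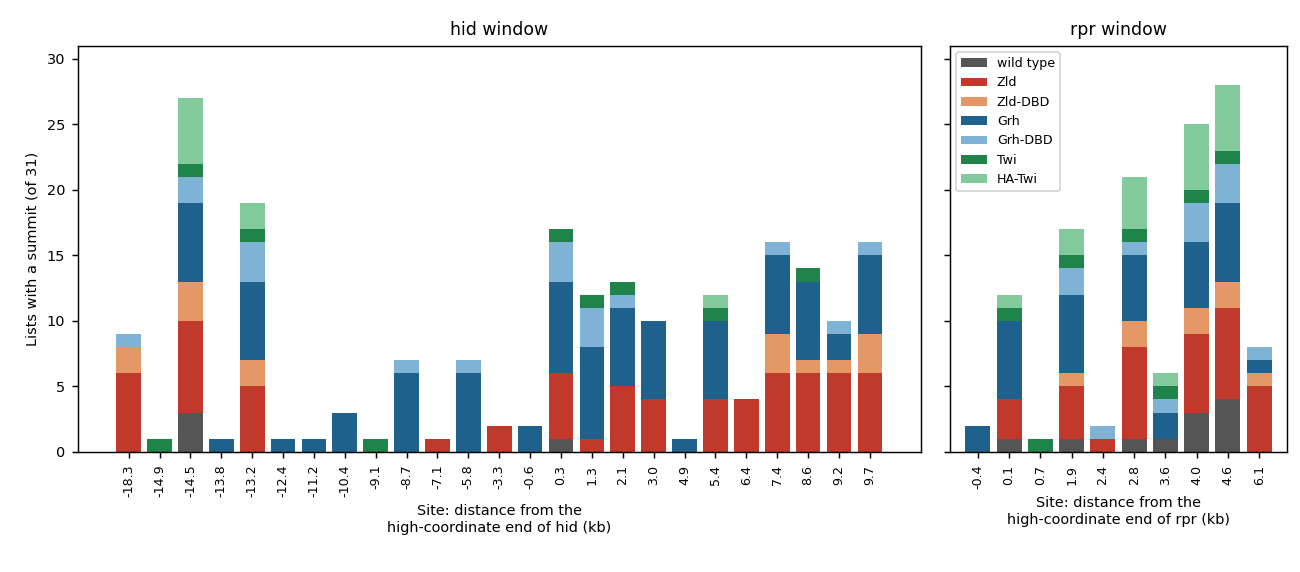
Number of lists (vertical axis, of 31) with a summit at each site of the hid window (left) and the rpr window (right), ordered by distance in kb from the high-coordinate end of the gene and coloured by construct, uninduced lists included. In the hid window 2 of 25 sites include a wild-type list (grey), and in the rpr window 6 of 10.

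The sites of the hid window differed in which factor held them. Of the 25, wild-type lists shared 2 and uninduced lists 3 more. Of the others, 3 were held by induced Zld lists only, 8 by Grh, 2 by Twi or HA-Twi, 4 by Zld and Grh and 3 by all of these factors. The chart of lists per site shows that the sites inside the gene were Grh sites for the most part and those above it were shared between Zld and Grh. Summits in at least 5 lists were found at 14 of the 25 sites, and 7 sites stood in a single list.

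The site shared most widely lay inside the gene at 18171185, 3440 bp from its low end. It had a summit in 27 lists, among them wild type with anti-Zld (fold 3.87), anti-Twi (2.18) and anti-HA (2.02), and it was the top hid summit of the wild-type anti-Twi and anti-HA lists. It ranked 1596 of 9213 (17.3% from the top) in the single-dose Zld list, and at 49.3% to 96.5% in the other induced Zld lists. The other site shared with wild type lay at the high-coordinate end of hid in 17 lists, with summits spread from 18185652 to 18186219. In wild-type cells with anti-Zld it was the strongest hid summit, 62 bp from the gene (fold 6.35, rank 1647 of 8888).

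Another site inside hid, at 18172453, had a summit in 19 lists, among them Zld at 0 µM, all 6 induced Grh lists and all 3 Grh-DBD lists, and in no wild-type list. In the Zld-DBD list at 100 µM it was the leading hid summit (fold 3.92, rank 253 of 5360). Grh sites inside the gene lay at 18176991 and 18179875, each in the 6 induced Grh lists and 1 Grh-DBD list and in no other list. The second ranked 2128 of 20194 at 400 µM (fold 8.04). Above the gene, sites at 18187729, 18188676 and 18190999 were present in all 6 induced Grh lists and in 5, 4 and 4 of the induced Zld lists. The site at 18190999 was the top hid summit in the Twi list (fold 5.34, rank 1828 of 18288) and in the HA-Twi list with taz (fold 2.96, rank 2525 of 4669).

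**Figure D5:**
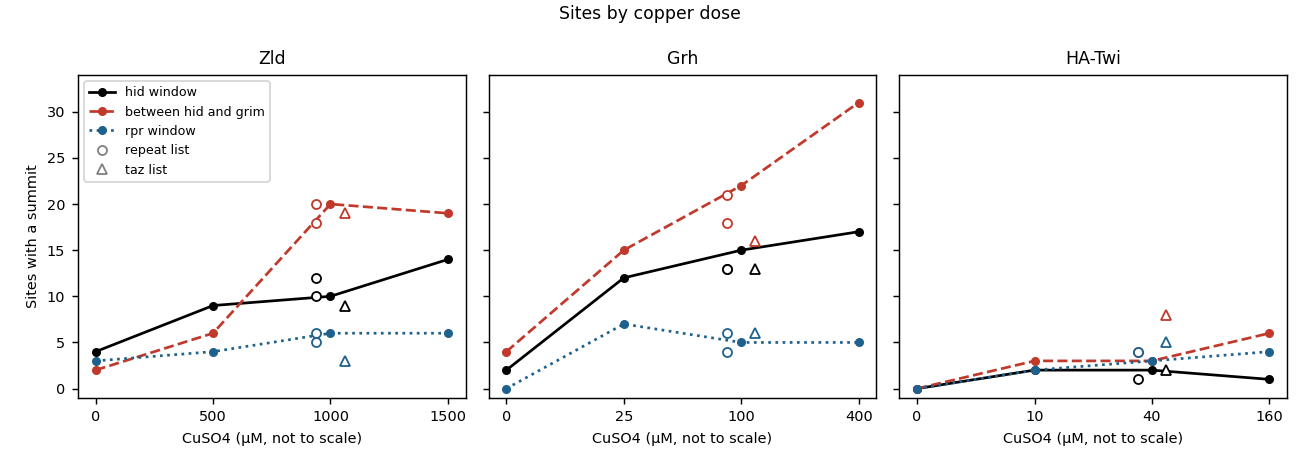
Sites with a summit (vertical axis) in the hid window, between the hid and grim windows, and in the rpr window, against CuSO4 dose for Zld, Grh and HA-Twi (horizontal axis not to scale); filled points joined by lines are the dose series, open circles repeat lists at the same dose (DMSO included) and open triangles lists with taz. Grh sites between hid and grim go from 4 at 0 µM to 31 at 400 µM, and rpr sites of Grh from 0 to 7 and then 5.

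Across the Zld dose series the hid window held 4 sites at 0 µM, 9 at 500, 10 at 1000 and 14 at 1500 µM. The repeat lists at 1000 µM held 12 (single dose) and 10 (DMSO), so 500 and 1000 µM differed by less than the repeats did and 1500 µM lay above all of them. The list at 1500 µM was also the longest, with 12919 summits against 12423, 9213 and 3116 at 1000 µM. All 4 sites of 0 µM were kept at 500 µM, and all 10 sites of 1000 µM were kept at 1500 µM. The 3 lists at 1000 µM together gave 13 sites, of which 7 were in every one. The number of rpr sites was 3, 4, 6 and 6 over the doses, with 6 and 5 in the repeats.

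Between the hid and grim windows the Zld series gave 2 sites at 0 µM, 6 at 500, 20 at 1000 and 19 at 1500 µM, and the repeats at 1000 µM gave 18 and 20. The step from 500 to 1000 µM was therefore far larger than the spread of the repeats, while the difference between 1000 and 1500 µM was not. The lists at 500 and 1000 µM had similar totals, 11980 and 12423 summits. A site 806 bp from CG7320, at 18204443, was among them: it ranked 739 of 11980 at 500 µM (fold 3.83), 25 of 12423 at 1000 µM (8.99) and 7 of 12919 at 1500 µM (9.40). Another, at 18224830, was present in all 6 induced Zld lists and in no other list, at ranks from 24 of 12919 at 1500 µM to 1291 of 11980 at 500 µM.

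The Grh series in the hid window gave 2 sites at 0 µM, 12 at 25, 15 at 100 and 17 at 400 µM, with 13 in both repeats at 100 µM. Between hid and grim it gave 4, 15, 22 and 31 sites, with 18 and 21 in the repeats. The 3 lists at 100 µM had 12 hid sites in common out of 16, and 14 of 29 between hid and grim. At 400 µM both counts lay above all lists at 100 µM. The list at 400 µM was also the longest, with 20194 summits against 18089, 13859 and 13714 at 100 µM. Whether the higher counts go beyond its length was not tested. The list at 0 µM, with 1853 summits, was much shorter than the others, and its 2 hid sites and 4 sites towards grim were all found again at 25 µM. The number of rpr sites was 0, 7, 5 and 5, with 4 and 6 in the repeats. The count at 25 µM thus lay just above all lists at 100 µM, and that at 400 µM lay within their range.

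The HA-Twi lists held few sites around the family. The hid window held 0 sites at 0 µM, 2 at 10, 2 at 40 and 1 at 160 µM, and the rpr window 0, 2, 3 and 4. The stretch between hid and grim held 0, 3, 3 and 6. The untagged Twi list at 40 µM, the longer one with 18288 against 5461 summits, held 9, 7 and 24. All 2 hid sites, 3 rpr sites and 3 sites between hid and grim of HA-Twi at 40 µM were among those of Twi. They made up 22.2%, 42.9% and 12.5% of the Twi sites. Wild-type cells with anti-HA also held 1 of these hid sites, 1 rpr site and 2 between hid and grim, or 4 of 8 over the stretch. At hid the HA-Twi sites at 10, 40 and 160 µM lay inside the gene, at the sites at 18171185 and 18172453 described above. The only one at 160 µM, at 18171185, was also held by wild-type cells with anti-HA.

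The lists with taz were compared with those with DMSO of the same line and dose. In the hid window Zld had 10 sites with DMSO and 9 with taz, of which 8 were shared (80% and 88.9%), and Grh had 13 and 13, of which 12 were shared (92.3% of each). Between hid and grim Zld had 20 and 19 sites with 14 shared, and Grh 21 and 16 with 16 shared. The Zld count of 9 at hid lay just below the 10 to 12 of the lists without taz at that dose, and the Grh count of 16 towards grim below their 18 to 22. The counts of Zld towards grim and of Grh at hid differed by no more than the repeat lists did. For Zld at rpr the count of 3 with taz lay below the 5 to 6 of the lists without taz, DMSO (5) included.

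HA-Twi had 4 sites between hid and grim with DMSO and 8 with taz, which included all 4, and 3 in the other list at 40 µM. The lists held 3049 and 4669 summits. The site at 18200835, 659 bp from CG7320, ranked 318 of 3049 with DMSO (fold 5.71) and 45 of 4669 with taz (8.32), and 214 of 18288 in the Twi list (8.52). The site at 18229448 ranked 1460 of 3049 with DMSO (fold 3.26), 283 of 4669 with taz (6.39) and 340 of 18288 in the Twi list (7.88). In the HA-Twi list without DMSO or taz at 40 µM neither site had a summit.

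The domains alone reached some of the sites of the full-length factors, at other copper doses. Over the 6 induced full-length lists, Zld had 15 sites in the hid window, of which 7 (46.7%) also had a summit in a Zld-DBD list. All 5 sites present in every full-length list were among these 7, and the domain had no hid site of its own. Between hid and grim the shared part was 3 of 27 (11.1%), and the domain had 4 sites there. In the rpr window it was 5 of 7 (71.4%), sites held by wild-type lists included. Of all summits of the single-dose Zld list in the genome, 53.8% had a Zld-DBD summit within 200 bp. This measure is over summits rather than sites, and over that list alone rather than the 6 lists together. It therefore does not show whether the shares above are high or low.

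For Grh the shared part was 10 of 19 sites in the hid window (52.6%), 9 of 36 between hid and grim (25%) and 6 of 8 in the rpr window (75%). The genome-wide share for the single-dose Grh list was 63.5%. It too is over the summits of that list alone, so it does not show whether the shares of the zones are high or low. The 2 Grh-DBD lists at 20 µM differed among themselves, with 10 and 4 hid sites of which 3 were in both. The 2 Zld-DBD lists at 100 µM had 5 each, also with 3 in both. The Zld-DBD lists at 100 and 400 µM shared all 5 of their hid sites, and the Grh-DBD lists at 20 and 80 µM all 4. Of these 3 zones, the share was lowest between hid and grim for both factors. Wild-type lists held 6 of the 10 rpr sites, 2 of 25 in the hid window and 3 of 60 between hid and grim. The domain shares were not computed without such sites, so they do not separate construct binding from signal present in wild type. None of the 6 sites between the grim and rpr windows had a summit in a Zld-DBD or Grh-DBD list.

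rpr (reaper), the member switched on by steroid hormone and by DNA damage in the fly, had sites of another kind. Of its 10 sites 6 included a wild-type list, and none lay below the gene. The site at 18403024, 4589 bp above rpr, was held by 28 lists, among them all 4 wild-type lists, whose top rpr summit it was. In wild type its fold was 5.52 with anti-Zld (rank 2111 of 8888), 2.50 with anti-Grh (1726 of 2779), 2.15 with anti-Twi (1836 of 4062) and 2.71 with anti-HA (529 of 3159). The neighbouring site at 18402475 was held by 25 lists, 3 of them wild type. Leaving out every site that a wild-type list held, 12 lists still had a summit in the rpr window and 24 in the hid window.

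In the S2-Zld lists, uninduced and induced, the top summit of the rpr window lay at 2 places. At 0, 500 and 1000 µM the top summit was at the site at 18404558, 6123 bp above rpr, which no wild-type list held, with ranks of 1566 of 8290 (fold 2.81), 716 of 11980 (3.85) and 684 of 12423 (4.43). At 1500 µM and in the single-dose, DMSO and taz lists it was at the site at 18402475. There the rank was 71 of 9213 in the single-dose list (fold 9.50), 1616 of 12919 at 1500 µM (3.80), 1394 of 3116 with DMSO (3.22) and 1591 of 3730 with taz (2.68). The high place of rpr in the single-dose list was not found in the repeat lists at 1000 µM.

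Expressed Grh was strongest next to rpr itself. The site at 18398558, 123 bp above the gene, was the top rpr summit at 100 µM (fold 5.30, rank 3962 of 18089), 400 µM (9.45, 921 of 20194), with DMSO (6.62, 1100 of 13714) and with taz (6.03, 888 of 12325). It had a summit in all 6 induced Grh lists, in 3 induced Zld lists, in the Twi list, in 1 HA-Twi list and in wild type with anti-Zld (fold 3.74, rank 3928 of 8888), and in no Zld-DBD or Grh-DBD list. In the single-dose Grh list the top summit was at 18402919 (fold 11.7, rank 1722 of 13859) and at 25 µM at 18401271 (4.19, 3973 of 13787). The repeats at 100 µM thus had different leading positions at rpr, and the same one at hid.

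Further sites of the rpr window also stood in at least 5 lists. That at 18400346 was in 17 lists and was the top rpr summit of the Twi list (fold 5.01, rank 2223 of 18288) and of the first Zld-DBD list (fold 1.37, rank 1637 of 1689). That at 18401284 was in 21 lists and led in the HA-Twi lists at 160 µM, with DMSO and with taz (folds 3.10, 3.65 and 3.32). That at 18401991 was in 6 lists and led in the first Grh-DBD list (fold 2.72, rank 4448 of 9862). HA-Twi at 10 and 40 µM had its top summit at the site of the wild-type lists, with folds of 3.08 and 2.77.

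Between the windows of hid and grim, where the genes CG7320 and CheA75a lie, 29 of the 60 sites stood in at least 5 lists and 20 in a single list. Zld alone held 9, Grh 16 and Twi or HA-Twi 13. Wild-type lists shared 3, of which the sites at 18243155 and 18243797 were in 26 and 27 lists. The second lies within the non-coding RNA gene lncRNA:CR45936. The site at 18204443 had summits in all 6 induced Zld and all 6 induced Grh lists, with rank 23 of 9213 in the single-dose Zld list (fold 14.5) and 207 of 13859 in the single-dose Grh list (31.4). A site at 18272848, whose nearest coding gene is CG5103 at 19277 bp, ranked 167 of 18288 in the Twi list (fold 8.84). It also stood in 2 induced HA-Twi, 5 induced Zld and 2 induced Grh lists.

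The rest of the death pathway was read from a list of 24 genes. It holds inhibitors of apoptosis and proteins that turn Diap1 over, the apoptosome, caspases, Bcl-2 relatives, the TNF and JNK branch and damage-response genes. All 24 were matched in the annotation table. They had a summit in 0 to 30 lists, with a median of 23 beside 21 for all genes, and at a median density of 45.4 per 10 kb beside 25.1. Of the 24, 5 had a higher density than hid and 7 a higher one than rpr.

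Xrp1, a transcription factor of the damage response, had a summit in 30 lists. Diap1, the inhibitor that the proteins of hid, rpr, grim and skl bind, had one in 29, as had the Bcl-2 relative Debcl, the TNF ligand gene egr and puc, which encodes a phosphatase that shuts off JNK. The caspase gene Damm had none, like grim. puc had the highest density with 93.1 per 10 kb. In the sparse Zld list with DMSO 8 of the 24 genes (33.3%) had a summit, beside 26% of all genes, and with taz 17 (70.8%) beside 48.8%. In the single-dose lists 22 (91.7%) had one for Zld beside 76.7% of all genes, 22 (91.7%) for Grh beside 82.6%, and 23 (95.8%) for Twi beside 85.7%. In wild-type cells with anti-Zld 23 (95.8%) had one, beside 75.5%. The share fell below that of all genes in the Zld-DBD list at 100 µM (54.2% against 56.4%) and was above it in the other 30 lists.

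The genes most like each member were sought by the Jaccard index of presence over the 31 lists, the number of lists shared by both genes divided by the number that hold either. For hid 59 genes had an index of 1, of which the first by name were AP-2mu, Acbp1 and Adi1. For rpr 101 genes did, first 18w, Atf3 and BORCS6. For skl 91 genes did, first CG10104, CG10182 and CG10822, all in the Twi list alone. For grim the index is undefined, since 987 genes, grim included, had no summit in any list. The pattern of presence was therefore shared with many other genes in each case.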

How the data were processed

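ChIP-seq peak lists of S2 cells were used as deposited by the authors. Bowtie2 2.4.4, MACS2 2.2, deepTools 3.5.1 and dm6 as the genome build stand, per the submitters' processing notes, with no role given. Each list gives per summit a fold enrichment (a ratio, computed by the authors) and a −log10 q-value, also deposited by the authors. No source used here states the filter applied after calling. Between 16.7% and 86.8% of peak numbers were kept, so the number of summits per list depends partly on it.

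Summit positions were computed 1-based; 2 that lay beyond their region were moved to its last base. Gene spans came from a RefSeq table of the same assembly without strand or exons, for 13922 protein-coding genes on the major chromosome arms. Ranks are by fold within a list. Python 3.11.15, pandas 2.3.3 and NumPy 2.4.6 were used, and the counting was tested on simulated lists. Genes named were the 4 members, the other cell-death genes in the most and the fewest lists (at most 6), the genes nearest to sites in at least 5 lists within the 4 windows, and the 3 genes most like each member; sites outside the windows with their nearest genes, and puc for its density, were chosen after their values were seen. The members and gene lists were chosen with earlier results of these data known. Other windows, thresholds and joining distances were tried.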

Additional observations from a re-analysis of the deposited data

How the results depend on the processing

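No paired analysis was possible because each list pools its 2 libraries, and for the same reason leaving out 1 library could not be done. Of the alternatives, 36 values stayed within 1.5 times the reported one and 12 did not. With a window of 2 kb, 17 lists had a summit at rpr and 0 at skl, and with 5 kb 0 at skl. With 20 kb, 6 lists reached grim and 2 skl. With a fold of at least 3, rpr had 18 lists and skl 0. Joining summits over 500 bp gave 66 sites in the stretch and 4 at rpr. Called regions overlapped the leading Zld region by at least 1 bp in 17 lists and over 50% of it in 6. This is another measure than the 16 lists with a summit at the leading site. Alternatives chosen after seeing the data also moved values: without sites of wild-type lists rpr had 12 lists, and without the Twi list the skl window had 0 sites. Without the wild-type anti-Grh and HA-Twi 0 µM lists, hid kept 29 lists and rpr 28. The wider windows, stricter thresholds and longer joins change these counts by construction. Depth behind the lists is unknown, and a summit missing from a short list does not show absence of binding.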
